A study of Mus musculus with 20 samples.

Results

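The endothelium, the cell layer lining blood vessels, and the vessel barrier of nerve were followed through 10 genes in mouse dorsal root ganglia (DRG), which hold the cell bodies of sensory neurons. The genes are Pecam1, Cdh5, Cldn5, Flt1, Kdr, Emcn, Tek, Vwf, Plvap and Abcb1a. They were taken by name after the Ensembl identifiers of the deposited count table had been matched to mouse symbols, and were proposed with earlier results of these data known. All 10 of 10 were found among 78258 identifiers, and all 10 were among the 28564 genes with enough counts to test.

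The series holds 20 libraries from 10 male mice. Each mouse gave 1 library of the ganglia on the side of a sciatic nerve transection (ipsilateral) and 1 of the opposite side (contralateral). The 5 conditional knockout mice (cKO, numbered H61, H64, H95, H99 and H100) were Ahr fl/fl with Thy1CRE-ERT2/EYFP. That name gives a Cre recombinase that tamoxifen activates and a yellow fluorescent protein. Thy1, whose promoter drives the Cre, is expressed in neurons among other cells. The 5 control mice (H62, H63, H65, H96 and H97) were Ahr f/f or f/+. Their titles call them Wildtype, and their library names carry ff where those of cKO mice carry ffcre, so no Cre is named for them. Ahr encodes the aryl hydrocarbon receptor, a ligand-activated transcription factor. Mice of both genotypes received tamoxifen at 100 mg/kg once a day for 5 days at 17 weeks of age. The nerve was cut 4 weeks later, and ganglia of levels L4 to L6 were collected 1 day after the cut, at Zeitgeber times 2 to 4. Contralateral ganglia therefore come from operated mice, and no unoperated mice were analysed here. A spinal cord injury is named in 1 label field, but the protocol describes the sciatic nerve and was followed.

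Vessels hold their contents through junctions between endothelial cells and through pumps that return molecules to the blood. In nerve the vessels within the fascicles are tightly sealed, whereas many vessels of the DRG are more permeable, some of them with fenestrae. Vascular endothelial growth factor (VEGF) and the angiopoietins act on receptors of these cells to control their survival, growth and leakiness.

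Libraries held between 76.2 and 118.5 M counts (M, mega), and each of the 10 genes had between 597 and 6285 counts in every library. Replicate libraries differed by 4.97 to 52.7 times more than counting error would give (chi-square per degree of freedom, 40 pairs), so that the spread between mice, not depth, limits the comparisons. Atf3, a gene induced in sensory neurons whose axon is cut, was at 11.3 ± 1.81 CPM (counts per mega counts, SD, n = 5) on the contralateral and 426 ± 12.8 CPM on the ipsilateral side of control mice. In cKO mice it was at 9.23 ± 0.629 and 417 ± 40.02 CPM, and it rose in both genotypes. Ahr stood at 24.2 ± 2.10 CPM in control and 20.4 ± 0.536 CPM in cKO contralateral ganglia, a log2 fold change of -0.25 that did not pass (adjusted p = 0.103, edgeR's quasi-likelihood test). On the ipsilateral side Ahr was at 34.4 ± 2.86 CPM in control and 31.9 ± 2.94 CPM in cKO ganglia, and its ranges overlapped between genotypes there but not on the contralateral side. The counts come from whole ganglia, and the deleted exons were not read out separately.

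The promoters of 6 of the 10 genes (Cldn5, Flt1, Kdr, Emcn, Tek and Abcb1a) were found in the RefSeq table of build GRCm38.p6, as windows of 300 bases from 250 before to 50 after the start of transcription. A set of 4 short motifs was searched on both strands: CAGGAAG, a core bound by ETS factors, AACAAT, a core bound by SOX factors, TGANTCA, the AP-1 element, and TNGCGTG, the core of the element bound by the aryl hydrocarbon receptor. Windows are shown for 3 genes that rose after injury in control ganglia (Emcn, Tek and Flt1) and for Cldn5, which did not, with every match in capitals. Emcn lies at chr3:137340828-137341127 on the plus strand, Tek at chr4:94739039-94739338 on the plus strand, Flt1 at chr5:147725962-147726261 on the minus strand and Cldn5 at chr16:18776597-18776896 on the plus strand.
Emcn: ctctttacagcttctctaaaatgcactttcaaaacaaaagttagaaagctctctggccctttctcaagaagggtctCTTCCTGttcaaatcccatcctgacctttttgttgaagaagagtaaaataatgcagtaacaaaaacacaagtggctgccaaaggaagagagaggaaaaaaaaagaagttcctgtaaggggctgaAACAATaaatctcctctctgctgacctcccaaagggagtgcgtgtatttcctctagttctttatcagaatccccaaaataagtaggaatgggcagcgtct
Tek: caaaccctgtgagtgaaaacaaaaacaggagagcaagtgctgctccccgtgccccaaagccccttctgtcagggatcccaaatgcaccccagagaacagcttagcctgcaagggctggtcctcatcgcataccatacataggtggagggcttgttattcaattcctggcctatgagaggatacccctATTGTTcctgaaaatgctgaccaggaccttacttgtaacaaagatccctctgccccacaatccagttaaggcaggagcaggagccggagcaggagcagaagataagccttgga
Flt1: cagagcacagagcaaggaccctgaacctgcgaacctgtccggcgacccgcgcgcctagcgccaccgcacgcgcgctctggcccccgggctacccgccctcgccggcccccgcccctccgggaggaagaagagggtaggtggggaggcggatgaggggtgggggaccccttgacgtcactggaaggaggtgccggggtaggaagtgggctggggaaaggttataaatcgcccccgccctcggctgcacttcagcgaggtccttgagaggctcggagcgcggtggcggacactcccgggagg
Cldn5: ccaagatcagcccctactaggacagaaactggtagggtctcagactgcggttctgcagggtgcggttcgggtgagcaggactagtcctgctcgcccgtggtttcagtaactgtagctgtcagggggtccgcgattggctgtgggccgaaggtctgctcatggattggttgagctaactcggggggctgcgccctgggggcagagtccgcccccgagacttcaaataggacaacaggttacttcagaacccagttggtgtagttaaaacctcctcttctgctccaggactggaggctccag
Positions count from the start of transcription and are negative before it. Emcn holds an ETS core that begins at -174 and a SOX core that begins at -50. Tek holds a SOX core that begins at -63. The Flt1 and Cldn5 windows hold none of these letters, and neither do those of Kdr and Abcb1a. The start that RefSeq gives for Abcb1a lies far upstream of the start of its GENCODE gene model (chr5, base 8660077), so its window may not be the promoter in use. Among 32817 promoter windows of the same length, the ETS core was in 13.3%, the SOX core in 10.7%, the AP-1 element in 7.81% and the receptor element in 5.06%. Of the 6 windows, 1 held the ETS core, 2 the SOX core and 0 either of the other two. The 4 windows shown differ in base composition, from 41.0% G and C with 2 CG pairs in Emcn to 70.7% with 29 CG pairs in Flt1. Those of Tek (52.0%, 3 CG pairs) and Cldn5 (58.3%, 12 CG pairs) lie between them.

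Levels between genes can be set side by side only per length, here as CPM per kilobase of merged exons (RPKM) computed from the deposited counts. In contralateral control ganglia Cldn5, a tight junction protein of endothelium, stood first at 11.9 ± 0.948 RPKM (SD, n = 5). Kdr, the main signalling receptor for VEGF, stood last at 1.14 ± 0.168 RPKM. Plvap, which forms the diaphragms of fenestrae in permeable vessels, came second at 7.41 ± 1.47 RPKM. Abcb1a, the efflux pump P-glycoprotein, followed at 5.55 ± 1.11 RPKM, and Cdh5, the adhesion molecule of endothelial junctions, at 5.32 ± 0.982 RPKM. Pecam1, another adhesion molecule of endothelial contacts, was at 3.71 ± 0.854 RPKM. Vwf, a clotting protein stored in endothelial cells and platelets, was at 2.22 ± 0.814 RPKM, close to the decoy VEGF receptor Flt1 at 1.99 ± 0.232 RPKM. The angiopoietin receptor Tek was at 1.81 ± 0.230 RPKM and Emcn, a surface mucin of capillaries and veins, at 1.49 ± 0.138 RPKM. Cldn5 and Kdr did not overlap their neighbours in this order over the 5 libraries, while every other pair of neighbours did. After injury Plvap stood first in both genotypes, at 12.6 ± 3.25 RPKM in control and 10.97 ± 2.04 RPKM in cKO ganglia, with a range that overlapped that of Cldn5.

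**Figure D1:**
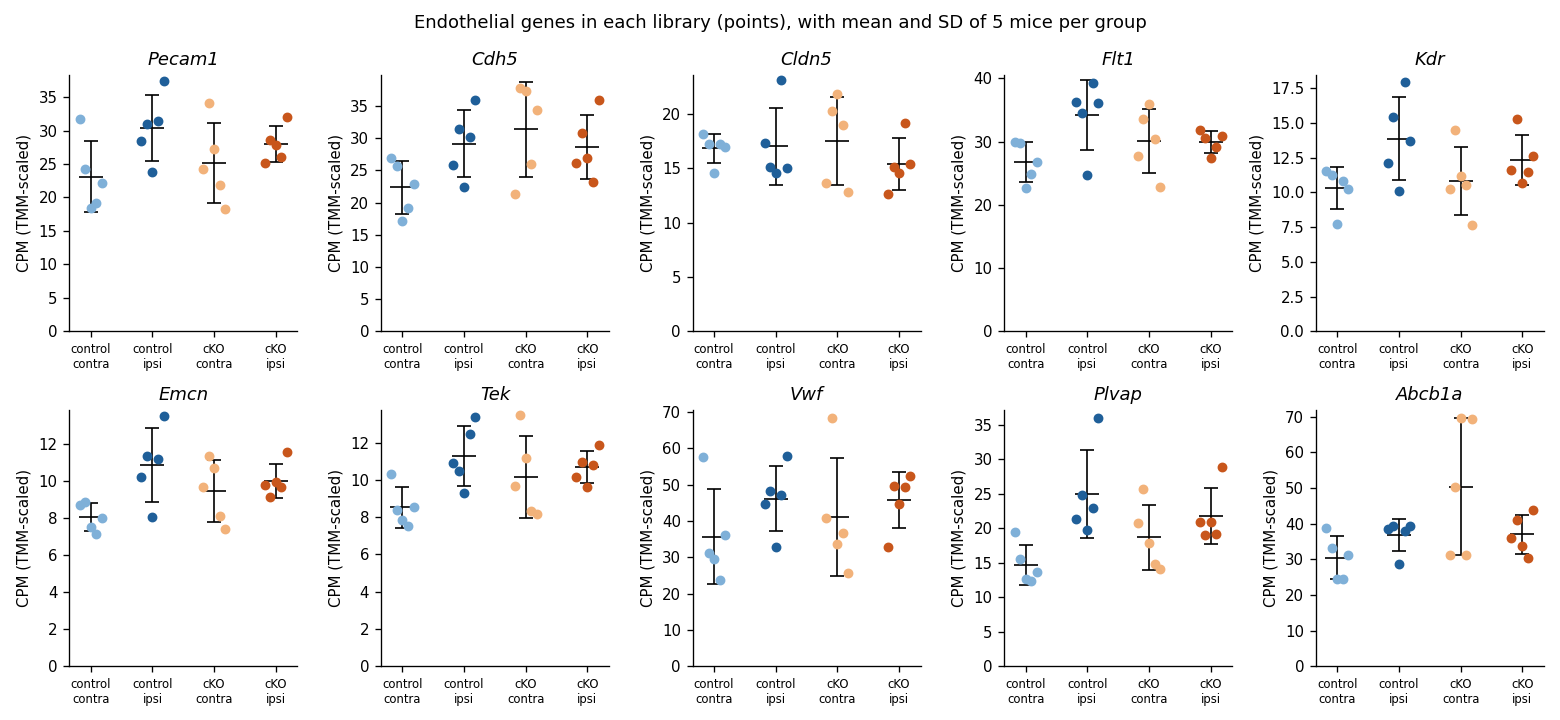
Level of each of the 10 genes in CPM (vertical axes, from 0) in the 4 groups, with 1 point per library and the mean and SD of 5 mice. In control ganglia the Plvap points do not overlap between sides, the Cldn5 points of all groups overlap, and the Abcb1a points of contralateral cKO ganglia spread from 31.1 to 69.7 CPM.

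Whether the lesion changed vessel genes was asked first in control mice, by setting their ipsilateral against their contralateral ganglia. Of the 10 genes, 4 rose: Plvap, Emcn, Tek and Flt1. None fell, all 10 estimates were above 0, and the median log2 fold change was 0.39 against -0.00472 over all tested genes. Over all 28564 genes 29.9% were called in this comparison, 13.8% as higher and 16% as lower (adjusted p under 0.05, edgeR's quasi-likelihood test with Benjamini-Hochberg adjustment). An earlier analysis of these libraries had already shown a shift of endothelial markers, so the direction is not independent evidence here. In whole ganglia a larger number of cells of a type and more RNA per cell cannot be told apart.

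Most estimates for markers of immune cells and fibroblasts were above 0 in the same comparison, with few calls. Of 10 macrophage markers 10 had estimates above 0, with a median log2 fold change of 0.40, and 1 of them, Mrc1, was called. All 6 neutrophil markers (median 0.71) and all 6 fibroblast markers (0.32) also had estimates above 0, with 0 called in either list by edgeR's quasi-likelihood test and 0 and 1 at an unadjusted p under 0.05. Over all 28564 genes 11017 had such a p in this comparison. Summed macrophage markers ran from 93.2 to 172 CPM in contralateral and from 107 to 200 CPM in ipsilateral control libraries, and from 90.3 to 240 and from 134 to 227 CPM in those of cKO mice. Summed neutrophil markers covered 33.0 to 99.7 CPM in contralateral and 31.8 to 140 CPM in ipsilateral control libraries. In cKO libraries they covered 18.3 to 156 and 46.97 to 134 CPM. The call for Mrc1 was lost without H62, H63, H96 or H97 (adjusted p = 0.115, 0.0802, 0.0798 and 0.0805). None of these markers was at 0 in any library, and their part in the vessel genes' difference was not tested.

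Plvap was the gene of the 10 with the largest change. Its level in contralateral control ganglia was 19.5 CPM in mouse H62, 15.5 in H63, 12.7 in H65, 12.3 in H96 and 13.7 in H97. In the ipsilateral ganglia of the same mice it was 21.4, 24.9, 19.8, 22.9 and 36.0 CPM. Every ipsilateral library lay above every contralateral one, with the contralateral library of H62 closest to the ipsilateral library of H65. The log2 fold change was 0.76 (SE 0.192, adjusted p = 0.00512), a 1.70-fold rise, and Plvap was higher on the injured side in 5 of 5 mice. It was the 1 gene of the 10 whose groups did not overlap, where 11.3% of all genes were likewise separated in the higher direction. The call held when any 1 mouse was left out, with log2 fold changes down to 0.58 without H97.

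Emcn and Tek moved by about the same amount. Emcn was at 8.68, 8.89, 7.50, 7.13 and 8.01 CPM in the contralateral ganglia of H62, H63, H65, H96 and H97, and at 10.2, 11.3, 8.06, 11.2 and 13.5 CPM in the ipsilateral ones. It was higher on the injured side in 5 of 5 mice, but the groups overlapped through H65. The log2 fold change was 0.43 (SE 0.123, adjusted p = 0.0105). Tek stood at 10.3, 8.40, 7.84, 7.52 and 8.54 CPM on the contralateral side and at 10.9, 10.5, 9.30, 12.4 and 13.4 CPM on the ipsilateral side. Here the overlap came from H62, whose contralateral library exceeded the ipsilateral library of H65, although each mouse was higher on its injured side. Its log2 fold change was 0.41 (SE 0.126, adjusted p = 0.0181).

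The VEGF receptors Flt1 and Kdr were both higher on the injured side in 5 of 5 control mice. Flt1 was at 29.9, 29.8, 22.7, 24.9 and 26.8 CPM on the contralateral side and at 36.3, 34.5, 24.8, 39.3 and 36.1 CPM on the ipsilateral side. Only the ipsilateral library of H65 fell within the contralateral range. The log2 fold change of Flt1 was 0.35 (SE 0.12, adjusted p = 0.0342). Kdr went from 7.75 to 11.6 CPM on the contralateral side to 10.1 to 17.96 CPM on the ipsilateral side, and its log2 fold change of 0.43 (SE 0.164) did not pass (adjusted p = 0.0577). With mouse as a replicate block in the fit, which uses the pairing of both sides within a mouse, Kdr passed (adjusted p = 0.00932), as did Cdh5 (log2 fold change 0.39, adjusted p = 0.0353), so that 6 of the 10 genes were called higher. In that fit 14.1% of all genes were called higher.

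The adhesion genes, the clotting protein and the pump did not pass in the unpaired fit of all mice. Pecam1 had group means of 23.1 ± 5.32 CPM on the contralateral and 30.4 ± 4.92 CPM on the ipsilateral side (log2 fold change 0.40, adjusted p = 0.0800). It was higher in 4 of 5 mice, with H62 the exception at 31.7 CPM on the contralateral and 28.4 CPM on the ipsilateral side. Cdh5 had means of 22.3 ± 4.13 and 29.2 ± 5.23 CPM (log2 fold change 0.38, adjusted p = 0.115) and was again lower on the injured side in H62 alone. Vwf spread most among mice, with 23.8 to 57.7 CPM on the contralateral and 32.8 to 57.8 CPM on the ipsilateral side (log2 fold change 0.37, adjusted p = 0.316). Its highest contralateral library was also H62. Abcb1a had means of 30.4 ± 6.10 and 36.8 ± 4.54 CPM (log2 fold change 0.27, adjusted p = 0.394).

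Cldn5 showed the least difference of the 10 genes in control ganglia. It was at 18.2, 17.2, 14.6, 17.2 and 17.0 CPM on the contralateral side and at 17.3, 15.1, 14.6, 23.1 and 15.1 CPM on the ipsilateral side. One mouse, H96, was higher on the injured side and the other values lay close together. The log2 fold change was 0.02 (SE 0.153, adjusted p = 0.956).

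The calls in control mice rest on few animals. Without H96 or without H97, 1 of the 10 genes passed, which was Plvap in both cases, and without H62 Flt1 did not pass (adjusted p = 0.0595) while Pecam1 did (0.0187). Without H96 the adjusted p values were 0.0534 for Emcn, 0.102 for Tek and 0.159 for Flt1, and without H97 they were 0.0560, 0.0828 and 0.0949. The shares of all genes called in these fits are not given here, so the loss of calls is not shown to be particular to the 10 genes. Within the control mice numbered H62 to H65, with the spread taken from the mice numbered H61 to H65, 0 genes passed and the median log2 fold change was 0.22, with 9 of 10 estimates above 0. Within H95 to H100 the median was 0.68 and 4 genes passed (Pecam1, Emcn, Tek and Plvap). Over all genes the order was the reverse, with fewer called within H95 to H100 than within H61 to H65. Those numbers are given with the dependence on processing.

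**Figure D2:**
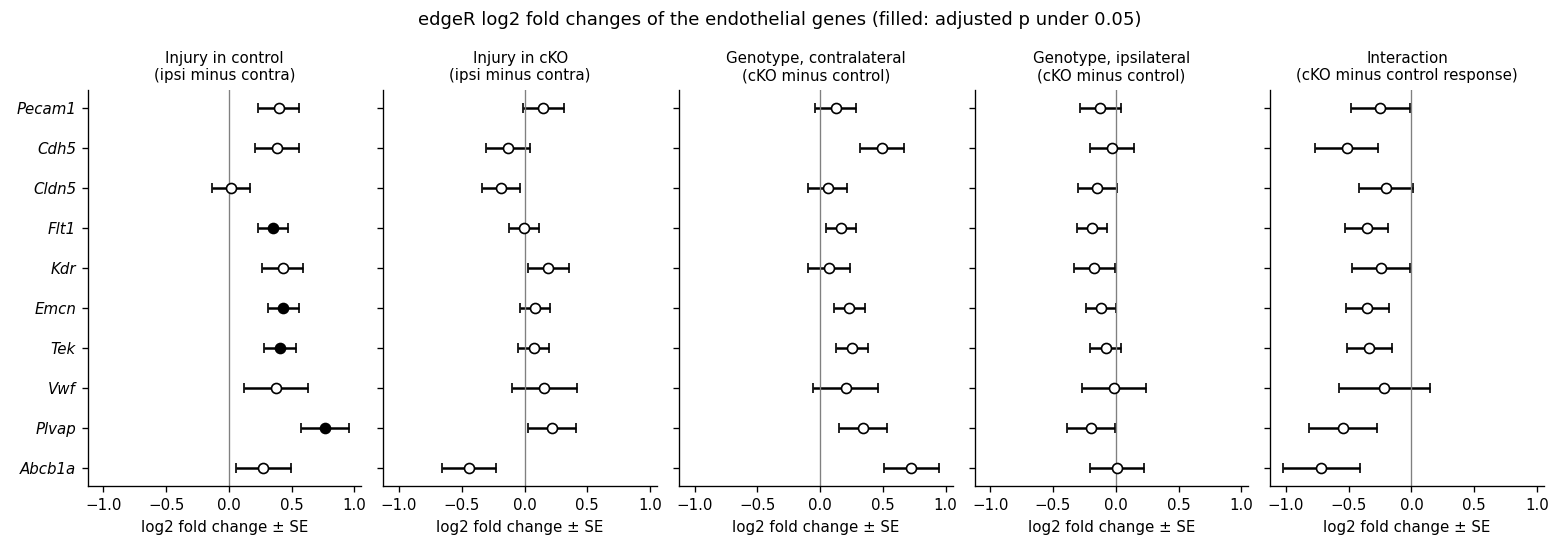
Log2 fold change (horizontal axes) with its standard error for the 10 genes (rows) in the 5 comparisons (panels); filled points passed an adjusted p of 0.05. All estimates of the first panel lie above 0 and 4 are filled, all those of the interaction panel lie below 0 and none is filled.

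In cKO mice the same comparison of sides gave 0 of 10 genes called, 0 with an unadjusted p under 0.05 by edgeR's quasi-likelihood test and 0 called by DESeq2. Over all genes 31.3% were called, 16.2% as higher and 15.1% as lower, so the lesion changed about as many genes as in control mice. Of the 28564 tested genes 11599 had an unadjusted p under 0.05 by edgeR's quasi-likelihood test. The estimates of the 10 genes were above 0 in 6 and below 0 in 4, with a median log2 fold change of 0.08 against -0.0296 over all genes. Estimates were above 0 for 1 of 6 fibroblast (median -0.48), 0 of 5 erythroid (-0.41), 2 of 6 neutrophil (-0.06), 6 of 10 macrophage (0.12) and 5 of 6 platelet markers (0.37), with 0 called by edgeR's quasi-likelihood test and 1, a fibroblast marker, at an unadjusted p under 0.05. No gene of the 10 had groups without overlap, where 11.9% of all genes were separated in the higher direction.

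Plvap in cKO mice was at 20.8 CPM in H61, 25.8 in H64, 17.9 in H95, 14.8 in H99 and 14.2 in H100 on the contralateral side. On the ipsilateral side it was at 21.0, 19.1, 21.0, 19.1 and 28.9 CPM. The groups overlapped widely, and the 2 contralateral libraries with the highest values belonged to H64 and H61. The log2 fold change was 0.22 (adjusted p = 0.423), and it was 0.0146 without H100 and 0.41 without H64. Flt1 was at 27.8, 33.5, 35.9, 30.4 and 22.9 CPM on the contralateral side and at 31.9, 30.6, 27.4, 29.1 and 30.9 CPM on the ipsilateral side. Its ipsilateral libraries lay inside the contralateral range, and the log2 fold change was -0.01. Emcn (0.08) and Tek (0.07) had estimates near 0 as well, with ipsilateral levels of 9.12 to 11.6 and 9.64 to 11.9 CPM. In each of the 3 genes the ipsilateral ranges of cKO and control ganglia overlapped.

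Among the other genes in cKO mice the estimates ran from -0.44 for Abcb1a to 0.19 for Kdr, with 0.16 for Vwf, 0.15 for Pecam1, -0.13 for Cdh5 and -0.19 for Cldn5. In cKO mice some estimates near 0 turned sign with 1 mouse left out. Without H100 the log2 fold changes of Emcn, Tek and Vwf were -0.05, -0.04 and -0.02, and the median over the 10 genes was -0.04.

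Mouse by mouse, the 10 genes tended to move together. In control mice the number of genes higher on the injured side was 10 in H96, 9 in each of H63, H65 and H97, and 5 in H62. The median log2 difference between sides was 0.68 in H96, 0.65 in H97, 0.33 in H63, 0.24 in H65 and 0.03 in H62. In cKO mice the number was 9 in H100, 8 in H61, 7 in H99, 3 in H95 and 1 in H64, with medians of 0.59, 0.06, 0.19, -0.16 and -0.30. The 2 genotypes overlapped, with the median of H100 next to those of H96 and H97, and that of H62 next to that of H61.

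**Figure D3:**
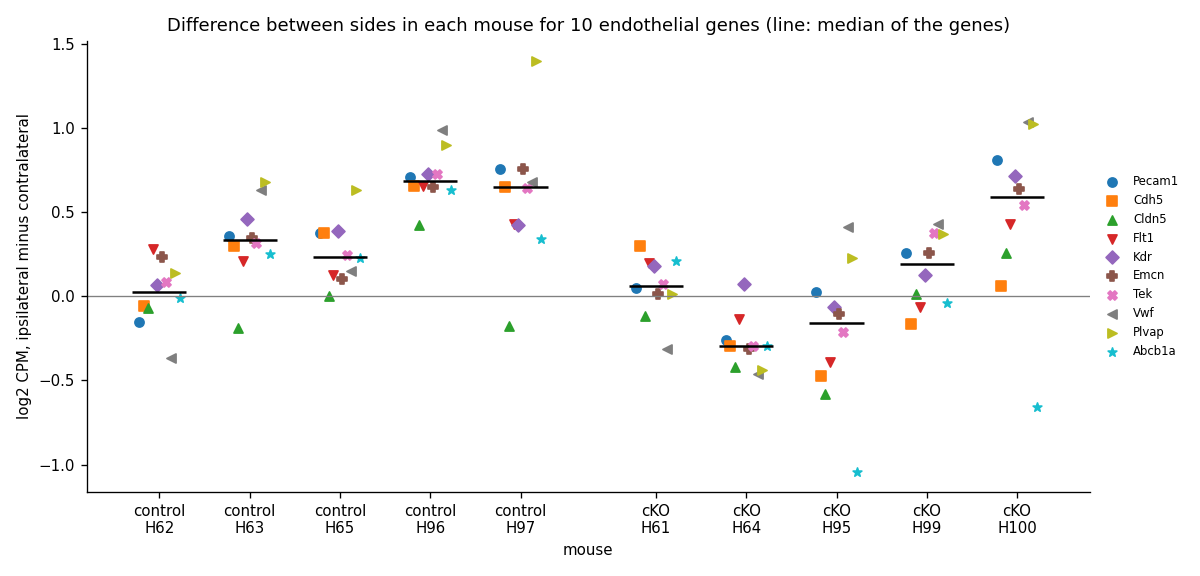
Log2 CPM of the ipsilateral minus the contralateral library of the same mouse (vertical axis) for the 10 genes (symbols), with the median of the genes as a line, in 5 control and 5 cKO mice. Medians run from 0.03 to 0.68 in control mice and from -0.30 to 0.59 in cKO mice.

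On the contralateral side the summed level of the 10 genes was highest in H62 among controls and in H64 and H95 among cKO mice. It was 253 CPM in H62, against 163 to 205 CPM in the other controls. It was 310 CPM in H64 and 277 CPM in H95, against 207 to 221 CPM in the other cKO mice. Fibroblast, erythroid, platelet and neutrophil markers were also highest in H62 and H64 of their groups. Some other lists differed. Macrophage markers were highest in H96 and H64, and Schwann cell markers in H63 and H95. Markers of mural cells, which wrap vessels, were highest in H62 and H100. The 6 fibroblast markers (Col1a1, Col1a2, Col3a1, Dcn, Lum and Pdgfra) summed to 1355 CPM in H62 and 801 to 1064 in the other contralateral controls. In H64 they summed to 2235 CPM, against 934 to 1979 in the other contralateral cKO libraries. The 5 erythroid markers summed to 710 CPM in H62, the highest of a range from 311, and to 833 CPM in H64, the highest of a range from 272. The 6 platelet markers reached 18.4 CPM in H62, in a range from 7.14, and 19.3 CPM in H64, in a range from 7.94. None of these markers was at 0 in any library, and their part in the difference between sides was not tested. The 12 sensory neuron markers summed to between 8422 and 9990 CPM in all libraries. On the ipsilateral side the fibroblast sum was 924 to 1518 CPM in control and 848 to 1557 CPM in cKO ganglia.

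Whether the 2 genotypes responded differently was tested directly, as the cKO response minus the control response. None of the 10 genes passed, by edgeR's quasi-likelihood test or by DESeq2, and 1, Abcb1a, had an unadjusted p under 0.05. Over all genes 0% were called; 2799 had an unadjusted p under 0.05 and DESeq2 called 11. The estimates were below 0 for 10 of 10 genes, with a median of -0.34. Estimates were also below 0 for 10 of 10 macrophage (median -0.34), 6 of 6 neutrophil (-0.75), 6 of 6 fibroblast (-0.78) and 5 of 5 erythroid markers (-0.44). Of 6 platelet markers 3 were above 0 (median -0.0169), and of 12 mural cell markers 2 (median -0.22). They were -0.72 for Abcb1a (SE 0.307, adjusted p = 0.498), -0.54 for Plvap (SE 0.27, 0.520) and -0.52 for Cdh5 (SE 0.248, 0.511), and those of the other 7 genes ran from -0.36 to -0.20. The rise called in control mice is therefore not shown to be smaller in cKO mice. With each mouse left out in turn the median ran from -0.45 to -0.23, and without H64 the estimate for Vwf was above 0.

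Genotypes were then compared on each side. On the contralateral side 0 of 10 genes passed edgeR's quasi-likelihood test, 2 (Cdh5 and Abcb1a) had an unadjusted p under 0.05, and DESeq2 called 1 (Abcb1a). Of all 28564 tested genes edgeR called 0.0735% and DESeq2 3.64%, and 5006 had an unadjusted p under 0.05 by edgeR's quasi-likelihood test. All 10 estimates were above 0, with a median of 0.22, and no gene had groups without overlap, where 0.448% of all genes were separated in the higher direction. Estimates were above 0 also for 10 of 10 macrophage (median 0.28), 6 of 6 neutrophil (0.87) and 5 of 5 erythroid markers (0.47), none of them called by edgeR's quasi-likelihood test or with an unadjusted p under 0.05. For platelet markers 3 of 6 were above 0 (median 0.00103), and for mural cell markers 9 of 12 (median 0.22). Without H64 the count above 0 was 7 of 10, since those of Pecam1, Kdr and Vwf turned. This comparison shares its libraries with both comparisons of sides, and its direction is not independent of theirs.

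Abcb1a differed most between genotypes on that side. The pump was at 38.9, 33.0, 24.6, 24.5 and 31.2 CPM in the control mice H62, H63, H65, H96 and H97, and at 31.2, 50.4, 69.7, 31.1 and 69.3 CPM in the cKO mice H61, H64, H95, H99 and H100. The cKO libraries of H64, H95 and H100 lay above all controls, while H61 and H99 lay within the control range. The log2 fold change was 0.73 (SE 0.218, adjusted p = 0.124 by edgeR's quasi-likelihood test, and 0.0252 by DESeq2). It passed in edgeR's quasi-likelihood test without H99 (adjusted p = 0.0167). That fit called 3326 of all genes, against 21 in the fit of all mice. The number of all genes called in this comparison changed widely with the mouse left out, as given with the dependence on processing. Without H95 and H100 together, a choice made after seeing the values, the log2 fold change of Abcb1a was 0.30 (adjusted p = 0.764). On the ipsilateral side the 5 cKO libraries were at 36.0, 41.0, 33.9, 30.3 and 43.8 CPM and the controls at 38.6, 39.3, 28.8, 37.8 and 39.5 CPM, so that the groups overlapped. Abcb1a was lower on the injured side in 4 of 5 cKO mice, by 1.04 on the log2 scale at most, in H95 (log2 fold change -0.44, adjusted p = 0.135). The paralog Abcb1b encodes a second P-glycoprotein of similar sequence, and reads shared by the pair may have been split or dropped in counting. It was low, at 3.42 ± 0.270 CPM in contralateral control and 3.63 ± 0.475 CPM in contralateral cKO ganglia.

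Cdh5 followed with a log2 fold change of 0.49 (SE 0.176, adjusted p = 0.169). It was at 26.9, 25.6, 17.2, 19.2 and 22.8 CPM in contralateral control and at 21.3, 37.8, 37.4, 26.0 and 34.4 CPM in contralateral cKO ganglia. The high libraries were again those of H64, H95 and H100, with H61 and H99 within the control range. On the ipsilateral side the means were 29.2 ± 5.23 CPM in control and 28.6 ± 4.93 CPM in cKO ganglia.

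The same 3 libraries were high in fibroblast markers. On the contralateral side these summed to 2235 CPM in H64, 1979 in H95 and 1684 in H100, against 1002 in H61 and 934 in H99, and to 801 to 1355 CPM in control mice. The 6 markers had 6 positive estimates between genotypes on that side, with a median log2 fold change of 0.81, and 0 of 6 passed by edgeR's quasi-likelihood test, 5 of them with an unadjusted p under 0.05. Over all genes 5006 of 28564 had such a p in that comparison. The median of the 6 markers between ipsilateral sides was 0.01. Their part in the higher Abcb1a and Cdh5 was not tested.

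Among 166 listed genes whose mean reached 1 CPM, the gene most like Abcb1a over the 20 libraries was Cldn11, a claudin of barrier cell layers and myelin, with a Pearson r of 0.961. Thbd (0.936), Vtn (0.930) and Ocln (0.899) came next, ahead of Cdh5 at 0.865. These genes were picked after their values were seen, and the 20 points share 10 mice. Cldn11 stood at 25.3, 43.7 and 56.2 CPM in the contralateral ganglia of H64, H95 and H100, and at 6.63 to 21.9 CPM in those of the control mice. The libraries of H61 (10.3 CPM) and H99 (13.7 CPM) lay within the control range, as they did for Abcb1a. For Cdh5 the most alike genes were Ephb4 (0.917) and Tjp1 (0.898).

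**Figure D4:**
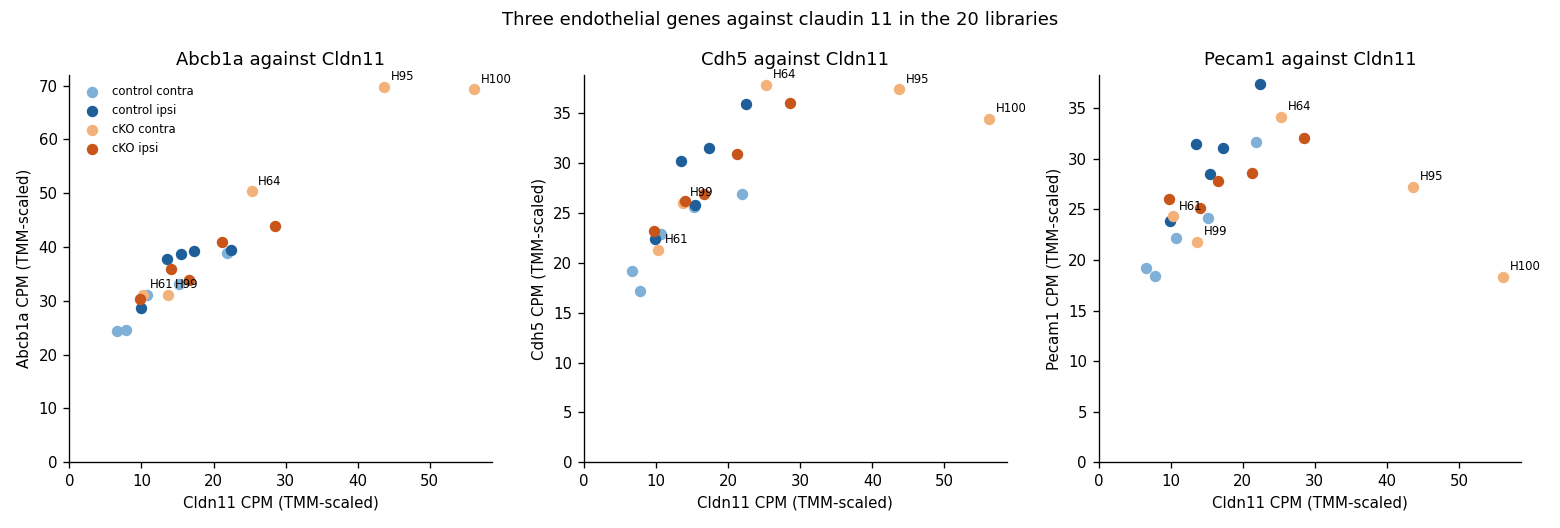
CPM of Abcb1a, Cdh5 and Pecam1 (vertical axes) against CPM of Cldn11 (horizontal axes) in the 20 libraries, coloured by group, with the mouse named for contralateral cKO libraries. Abcb1a climbs with Cldn11 up to the libraries of H95 and H100, at 43.7 and 56.2 CPM of Cldn11, whereas Pecam1 in the same 2 libraries is at 27.2 and 18.3 CPM.

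On the ipsilateral side 0 of 10 genes passed between genotypes by edgeR's quasi-likelihood test, 0 had an unadjusted p under 0.05 and DESeq2 called 0, where edgeR called 0.007% of all genes. Over all genes 674 of 28564 had an unadjusted p under 0.05 by that edgeR test. The estimates of the 10 genes ran from -0.20 for Plvap to 0.01 for Abcb1a, 9 of them below 0, with a median of -0.12. For Plvap the means were 25.0 ± 6.45 CPM in control and 21.8 ± 4.05 CPM in cKO ganglia.

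The 10 genes did not all vary as one group. Over 45 pairs the Pearson r across the 20 libraries ran from -0.00337 to 0.924 with a median of 0.663, and the median was 0.613 once group means were removed. Pecam1 and Tek formed the closest pair (0.924), followed by Emcn and Plvap (0.922). Cldn5 and Plvap, a tight junction gene and a gene of fenestrae, formed the loosest. Against the mean of the other 9 genes, r was 0.941 for Tek, 0.929 for Pecam1, 0.890 for Emcn, 0.852 for Flt1 and 0.809 for Plvap. It was 0.779 for Vwf, 0.777 for Kdr, 0.741 for Cdh5, 0.421 for Abcb1a and 0.318 for Cldn5. Libraries of a mouse or group share conditions, and these values describe the 20 libraries only.

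Of 17296 other genes whose mean reached 1 CPM, the 8 most like the mean of the 10 genes over the 20 libraries were Sox18 (r 0.880), Entpd1 (0.880), Col14a1 (0.877), Lrg1 (0.876), Gata2 (0.855), Fgd5 (0.851), Itga1 (0.851) and Mfge8 (0.850). Sox18 is a transcription factor of endothelium and Entpd1 an enzyme of the vessel surface that breaks down ATP, while Col14a1 is a collagen of fibroblasts. Of the 50 most alike genes, most were in no list used here, and Lrg1, Selp, Flt4 and Ephb4 were in vessel lists described below. Sox18, Clec14a and Eng, 3 of these 50 out of 17296 candidates, were in the list of 25 other endothelial genes.

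That list, taken from general knowledge of endothelium with earlier results of these data known, gave a further view of the vessels. In control mice 11 of its 25 genes rose and 0 fell, with a median log2 fold change of 0.33, where 13.8% of all genes rose. The highest were Sox7, an endothelial transcription factor (1.24 ± 0.251 to 2.61 ± 0.257 CPM, log2 fold change 1.08, adjusted p = 1.61e-06), Podxl, a mucin of the vessel surface (23.8 ± 3.09 to 39.9 ± 2.10 CPM, 0.75, 1.59e-05), and Eng, a co-receptor for transforming growth factor beta (0.58, 0.00667). In cKO mice 3 rose and 2 fell, with a median of 0.03. Both counts are smaller shares of the list than the 16.2% and 15.1% called in these directions over all genes. Sox7 (0.90) and Podxl (0.59) were again the highest, followed by Esam, a junction molecule (0.33). Those that fell were Cd34, a surface mucin also found on fibroblasts (-0.40), and Gpihbp1, which holds lipoprotein lipase at capillaries (-0.46). The call for Gpihbp1 was lost without H64 or without H95 (adjusted p = 0.151 and 0.107). Sox7 and Podxl passed in both genotypes under every alternative tried, and 0 of 25 genes passed in the interaction, with 5 at an unadjusted p under 0.05 by edgeR's quasi-likelihood test.

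Of 25 junction and transporter genes of vessel and perineurial barriers, 7 rose and 2 fell in control mice (median 0.13), against the same shares of 13.8% higher and 16% lower over all genes. In cKO mice 6 rose and 2 fell (median -0.01), against 16.2% and 15.1%. Slc2a1, the glucose transporter of barrier vessels, which perineurial and other cells also carry, went from 60.4 ± 4.15 to 131 ± 8.12 CPM in control mice. In cKO mice the 2 sides were at 58.4 ± 5.00 and 131 ± 17.4 CPM. Its log2 fold changes were 1.12 (adjusted p = 1.02e-09, edgeR's quasi-likelihood test) and 1.17 (4.54e-10). Slc7a5, a carrier of large neutral amino acids that neurons also use, rose by 0.58 and 0.62. Abcb1b rose by 0.28 in cKO mice, a call lost without H61, H99 or H100 (adjusted p = 0.0552, 0.0629 and 0.0711). The fallers were the same in both genotypes: Cgn, a junction scaffold (-0.48 and -0.47), and the efflux pump Abcc4 (-0.19 and -0.20). Unlike these, the barrier members Cldn5 and Abcb1a were called in neither genotype.

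Of 25 ligands, receptors and Notch genes acting on endothelium, 2 rose and 5 fell in control mice (median 0.06), where 13.8% of all genes rose and 16% fell. In cKO mice 0 rose and 7 fell (median -0.15), where 16.2% of all genes rose and 15.1% fell. Of the ligands, the VEGF family members Vegfb (-0.24) and Pgf (-0.35) fell in control mice, as did Efnb2, a membrane ligand of arteries (-0.30). The control call for Pgf was lost without H63 (adjusted p = 0.0763). In cKO mice the largest falls were those of the angiopoietins Angpt4 (1.34 ± 0.173 to 0.608 ± 0.0874 CPM, -1.14) and Angpt1 (-0.61) and of Pgf (11.4 ± 1.92 to 6.69 ± 0.234 CPM, -0.76). The call for Angpt1, a ligand of Tek, was lost without any 1 of H61 to H65, H95 and H96 (adjusted p = 0.0510 to 0.188). Flt4, the VEGF receptor best known from lymphatic vessels (0.46), and Ephb4, the receptor for Efnb2 (0.39), were the risers in control mice. The call for Flt4 was lost without any 1 of 7 mice (adjusted p = 0.0559 to 0.140), and that for Ephb4 without H63, H65, H96 or H97 (0.0515 to 0.1497). Vegfa, the main ligand of Flt1 and Kdr, was at 38.8 ± 4.41 and 40.3 ± 2.10 CPM in control and at 40.8 ± 4.54 and 41.7 ± 2.07 CPM in cKO ganglia and was called in neither genotype.

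Genes that endothelium switches on when it is activated gave the largest folds among these vessel lists. In control mice 4 of 16 rose, and in cKO mice 5 of 16, with 0 falling in either and medians of 0.52 and 0.19. Over all genes 13.8% and 16.2% were called higher. Procr, the receptor for protein C, had log2 fold changes of 3.43 and 2.81, and Il6, a cytokine made by many cell types, had 3.33 and 4.34. These genes are not made by endothelium alone. The leukocyte adhesion genes Sele (0.201 ± 0.154 to 0.515 ± 0.341 CPM in control ganglia) and Selp (1.21 ± 0.609 to 2.35 ± 1.45 CPM) were low and did not pass.

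Of 6 markers of lymphatic endothelium, 2 rose in control mice (Lyve1, 0.55, and Pdpn, 0.48) and 0 passed in cKO mice, with medians of 0.46 and 0.13. Over all genes 13.8% and 16.2% were called higher. The call for Lyve1, which some macrophages also carry, was lost without H63, H65 or H97 (adjusted p = 0.0879, 0.0678 and 0.0636, edgeR's quasi-likelihood test). Prox1, which defines that cell type, was at 0 in at least 1 library and averaged 0.137 ± 0.206 CPM in contralateral control ganglia. Of 12 markers of mural cells, which wrap vessels, Notch3 (0.54) and Abcc9 (0.39) rose in control mice and Rgs5 (0.29) in cKO mice, counts near or below those shares. The call for Abcc9 was lost without H63, H96 or H97 (adjusted p = 0.0888, 0.121 and 0.137). In the edgeR fit of all mice, no gene of any of these lists passed between genotypes on either side or in the interaction. DESeq2 called Abcb1a between contralateral sides.

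**Figure D5:**
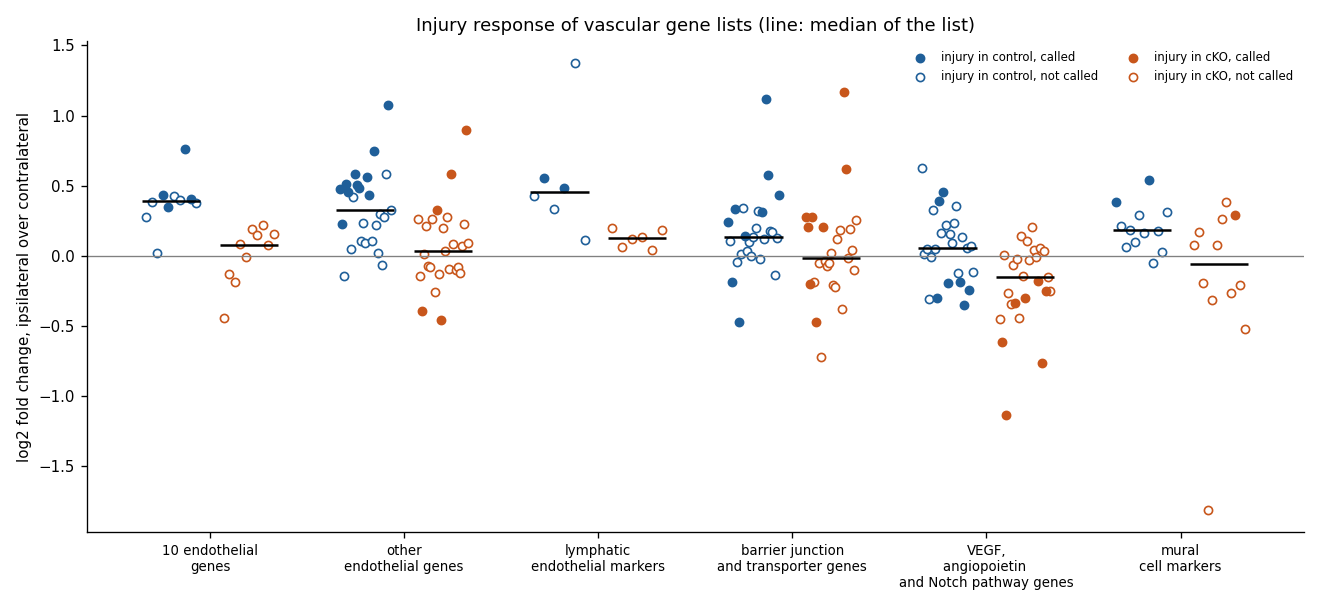
Log2 fold change of the ipsilateral against the contralateral side (vertical axis) for each gene of 6 vessel lists in control (blue) and cKO (orange) mice; filled points passed an adjusted p of 0.05 and lines are medians. The median of the 10 genes is 0.39 in control and 0.08 in cKO mice, and that of the other endothelial genes 0.33 and 0.03.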

How the data were processed

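RNA was measured in 20 DRG libraries, made with a stranded mRNA kit and read as paired ends, per the labels. The deposited table holds raw whole-number counts per gene made by the authors. The submitters' processing notes name HISAT2, Picard and builds mm10 and mm39 without roles. The counter, annotation and strand setting are not given in the sources used here, so reads of overlapping or antisense genes cannot be told apart. Each column was mapped to its mouse and side by library name. Where 1 title cut the mouse number short, the number in the library name was used. Each mouse gave 1 library a side, so p-values of the main fit rest on the spread between mice within a group. That fit does not use the pairing of both sides of a mouse, which the replicate block does.

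Symbols came from GENCODE M21 for 51487 of 78258 identifiers (98.1% of counts), and merged exon lengths from the same release. Genes passing filterByExpr (minimum count 10, minimum total 15) were fitted over all 20 libraries (4 groups of 5) by the robust quasi-likelihood test of edgeR 4.0.16 in R 4.3.3, after TMM scaling, and p-values were adjusted over 28564 genes by Benjamini-Hochberg; an adjusted p under 0.05 is a call. CPM use TMM-scaled totals, and correlations use log2 CPM with a prior count of 2. Values are means ± SD of 5 mice. The code was tested on simulated data. Both libraries of a number come from 1 mouse, so the numbers pair the samples; their deviations from group means had a median r of 0.186 over 10 mice (-0.0546 to 0.361, 7 over 0.1). Alternatives were DESeq2 1.42.0, RLE scaling, no filter, a mean CPM minimum of 1, the replicate block, other sample sets, the range of mouse numbers and each mouse left out. The 10 genes and all lists were chosen with earlier results of these data known. Named genes are all 10, Ahr, Atf3, up to 3 called genes per list, direction and comparison, and the 8 most alike; the leukocyte adhesion genes, Vegfa, Prox1, Cldn11 and the genes most like single members were added after their values were seen. Some genes that this rule names are not reported here. The deposited FPKM table was not used.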

Additional observations from a re-analysis of the deposited data

Results flagged for a closer look

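In 60 groups of 5 libraries (the 10 genes in 4 groups, and the differences between sides in 2 genotypes), 2 values stood apart from the other 4 by Dixon's ratio of gap to range, whose critical value for 5 samples is 0.71. Chance marks about 1 in 20 such groups. Plvap in the ipsilateral ganglia of cKO mouse H100 was 28.9 CPM, against 19.1 to 21.0 CPM in the other 4 mice (ratio 0.805). Abcb1a in the ipsilateral ganglia of control mouse H65 was 28.8 CPM, against 37.8 to 39.5 CPM in the others (ratio 0.850).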

How the results depend on the processing

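The 4 genes called in control mice after injury became 5 with DESeq2 or a mean CPM minimum of 1 (with Kdr), 3 without a filter, 6 with the replicate block and 0 within H61 to H65, and from 1 to 5 with 1 mouse left out; the median moved to 0.68 within H95 to H100. The block changed no other call of the 10 genes. Over all genes 14.1% were called higher after injury in control mice with the block. Numbers for the ranges of mouse numbers are given below, and those for the other settings are not given here. The counts of the 10 genes therefore do not show a change particular to them. No gene of the 10 was called in cKO mice, between ipsilateral sides or in the interaction under any alternative run. All genes called between contralateral sides numbered 1041 with DESeq2 (1 of the 10 genes), 50 with no filter, 45 with a mean CPM minimum of 1, 2 with only the libraries compared, 3 within H61 to H65, 7 within H95 to H100, 2 without H95 and H100, and 4 to 3326 (0 to 1 of the 10 genes) with 1 mouse left out. In the interaction DESeq2 called 11 genes, and leaving out 1 mouse 0 to 43. Within H61 to H65 and H95 to H100, 4607 and 3330 genes were called after injury in control and 4305 and 4008 in cKO mice, from fewer samples, and 6 between ipsilateral sides within H95 to H100.

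Signs turned only for estimates that had not passed; where not given by the setting's fewer samples, the cause was not tested. Flt1 in cKO mice was 0.0107 without a filter, 0.00703 with the replicate block and 0.0119 with only the libraries compared, and Cldn5 in control mice -0.000816 with the replicate block. With the range of mouse numbers as covariate, Vwf was 0.0158 and Abcb1a -0.00397 between ipsilateral sides. Within H61 to H65, Cldn5 was -0.0687 in control mice; in cKO mice Pecam1 was -0.12, Flt1 0.0288, Emcn -0.15, Tek -0.13, Vwf -0.40 and Plvap -0.22; between ipsilateral sides Cdh5 was 0.11, Kdr 0.11 and Tek 0.0525. Within H95 to H100, Kdr was -0.10 between contralateral and Abcb1a -0.10 between ipsilateral sides. Without H95 and H100, chosen after seeing the data, Pecam1 was -0.00785, Emcn -0.0279, Vwf -0.15 and Plvap -0.0532 in cKO mice.

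With 1 mouse left out, Cldn5 in control mice ran from -0.10 to 0.0770. In cKO mice Flt1 ran from -0.10 to 0.0987, Emcn from -0.0488 to 0.19, Tek from -0.0359 to 0.19 and Vwf from -0.0237 to 0.39. Between contralateral sides Pecam1 ran from -0.0118 to 0.26, Cldn5 from -0.0155 to 0.15, Kdr from -0.0577 to 0.17 and Vwf from -0.0595 to 0.45. Between ipsilateral sides Cdh5 ran from -0.12 to 0.0624, Vwf from -0.11 to 0.0859 and Abcb1a from -0.0629 to 0.0727. Vwf in the interaction ran from -0.47 to 0.0164. At 597 or more counts per gene and library, the spread between mice limits these values more than depth.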
